A study of Mus musculus with 10 samples.

Results

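The 1296 intergenic Qki-5 peaks outside promoters made up 17.2% of the 7539 Qki-5 peaks called in cells labelled as wild-type (WT) differentiated oligodendrocytes (95% interval 16.3 to 18.1). They were chosen by position alone. A peak belonged to them when no base of it lay within 2 kb of a transcription start site (TSS) in the GENCODE M21 basic annotation of the chromosomes and its summit lay in no gene of that release. The other WT Qki-5 peaks were 4594 promoter, 1461 intronic and 188 exonic peaks. Among peaks with a summit in no gene, the edge of the intergenic peak nearest to the limit lay 2007 bp from a TSS and its peak was enriched 4.36-fold, and that of the nearest promoter peak lay 1983 bp away and its peak was enriched 3.49-fold.

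Chromatin immunoprecipitation sequencing (ChIP-seq) recovers DNA crosslinked to a protein, and peaks mark places where the immunoprecipitated library exceeds its input. Neural stem cells came from whole brains of newborn Nestin-CreERT2;Qk L/L mice, in which Nestin drives a tamoxifen-inducible Cre. Qk was deleted in culture with 4-hydroxytamoxifen to give Qk-/- cells, and WT and Qk-/- cells were then differentiated in medium with triiodothyronine. The labels give the strain as an FvB/C57BL6 hybrid, the study's text describes its mice as pure C57BL/6J, and the difference was not resolved here. The labels call the controls wild type without giving their Qk or Cre alleles. Qki-5, RNA polymerase II (Pol II) and their input libraries came from cells at passage 7 and Srebp2 libraries from passage 8. Each of the 6 peak lists was made from 1 library, so no comparison has a replicate check, no p-value is given, and library depths are unknown. Intervals are exact 95% intervals that treat peaks as independent and cover counting error only.

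Qki-5 is the nuclear isoform of Quaking, an RNA-binding protein of the STAR family that is known for its part in oligodendrocyte maturation and myelin gene splicing. Pol II transcribes protein-coding genes and many noncoding RNAs, and it is also found at active enhancers, the distal elements from which short, unstable RNAs are made. Intergenic ChIP-seq peaks can lie at such elements, at unannotated transcripts or in repeated sequence.

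The WT Qki-5 list held 7539 peaks and the Qk-/- Qki-5 list 427, the Pol II lists held 32280 WT and 12835 Qk-/- peaks, and the Srebp2 lists held 77 and 28. The study's text describes longer Qki-5 and Srebp2 lists, so counts and shares here refer to the deposited lists alone. The Qk promoter carried a Pol II peak in both genotypes, which does not test the deletion. Pol II peaks lay at the promoters of 11 of 11 neural stem cell marker genes but of only 4 of 16 oligodendrocyte markers in WT cells (Cnp, Olig1, Olig2 and Gstp1). Promoters of the defining myelin genes Mbp, Mag, Mog and Mobp, and of Sox10 and Myrf, had none, so the labelled cell type was not borne out by these markers. The identifiers given to individual Qki-5 and Pol II peaks start with mNSC, whereas Srebp2 peaks have identifiers starting with OL. None of 6 microglial and 2 of 8 neuronal marker promoters had a WT Pol II peak, while 8 of 10 astrocyte markers did.

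The strongest intergenic peaks came in 3 kinds that the results below turn on, and the 201 bp around the summits of 8 of them are shown from the mm10 reference sequence (RefSeq, plus strand). The first pair were also called in Qk-/- cells and had no Pol II. The next 5 had a WT Pol II peak and were not called in Qk-/- cells, and the last had neither. Capitals mark the letters of listed motifs on either strand, which are spelled out with the motif shares below.
Mir148a distal peak, wide, chr6:51179232-51179432: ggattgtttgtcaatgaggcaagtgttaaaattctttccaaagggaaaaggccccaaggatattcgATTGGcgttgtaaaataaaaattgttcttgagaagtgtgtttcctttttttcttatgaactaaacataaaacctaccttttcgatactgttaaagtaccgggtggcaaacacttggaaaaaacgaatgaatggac
Mir148a distal peak, narrower, chr6:51171849-51172049: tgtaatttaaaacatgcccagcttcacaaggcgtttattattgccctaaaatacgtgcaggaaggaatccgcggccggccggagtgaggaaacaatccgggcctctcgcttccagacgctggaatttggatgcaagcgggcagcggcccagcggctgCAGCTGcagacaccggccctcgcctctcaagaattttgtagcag
Gm10192 upstream peak, chr4:97193321-97193521: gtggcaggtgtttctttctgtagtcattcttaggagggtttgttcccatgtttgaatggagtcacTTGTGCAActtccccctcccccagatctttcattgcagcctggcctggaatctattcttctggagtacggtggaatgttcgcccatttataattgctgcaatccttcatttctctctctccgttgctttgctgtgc
Ackr3 distal peak, chr1:90288904-90289104: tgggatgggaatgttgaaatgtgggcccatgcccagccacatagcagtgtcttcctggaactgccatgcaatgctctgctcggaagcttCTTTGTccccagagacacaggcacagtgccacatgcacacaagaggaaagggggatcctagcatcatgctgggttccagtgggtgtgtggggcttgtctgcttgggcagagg
Trmt61a downstream peak, chr12:111691575-111691775: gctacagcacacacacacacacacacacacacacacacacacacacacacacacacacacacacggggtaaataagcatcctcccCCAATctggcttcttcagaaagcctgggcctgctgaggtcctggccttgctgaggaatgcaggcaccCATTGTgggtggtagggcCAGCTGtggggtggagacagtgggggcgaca
Hopx upstream peak, chr5:77137825-77138025: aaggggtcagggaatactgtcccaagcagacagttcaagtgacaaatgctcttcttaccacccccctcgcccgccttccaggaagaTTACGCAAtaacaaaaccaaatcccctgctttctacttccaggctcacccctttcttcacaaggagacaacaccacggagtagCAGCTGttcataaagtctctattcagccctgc
Olig1 upstream peak, chr16:91265977-91266177: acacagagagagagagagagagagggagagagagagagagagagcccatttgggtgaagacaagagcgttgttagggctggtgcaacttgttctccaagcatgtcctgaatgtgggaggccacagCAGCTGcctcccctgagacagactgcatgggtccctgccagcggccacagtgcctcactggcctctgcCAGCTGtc
Rxra distal peak, chr2:27599119-27599319: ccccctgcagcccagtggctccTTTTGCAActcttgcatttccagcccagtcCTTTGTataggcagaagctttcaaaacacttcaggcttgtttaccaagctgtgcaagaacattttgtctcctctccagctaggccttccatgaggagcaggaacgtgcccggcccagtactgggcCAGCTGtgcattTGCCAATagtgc

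The window of the wide Mir148a peak held a CCAAT box and that of its narrower neighbour an E box, and the rest of these peaks was not searched. An E box stood in the windows near Trmt61a, Hopx, Olig1 and Rxra, and the Olig1 window held it at 2 places. Olig1 encodes a transcription factor of the oligodendrocyte lineage, and its peak, chr16:91265868-91266407, was enriched 13.4-fold at 3695 bp upstream of the Olig1 TSS.

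Intergenic Qki-5 peaks were about as wide and as enriched as the other Qki-5 peaks outside promoters. Their median width was 360 bp (350 to 371), against 335 bp (326 to 344) for intronic and 370 bp (363 to 377) for promoter peaks. Their median fold enrichment over input was 5.66 (5.61 to 5.81), against 5.61 (5.56 to 5.70) and 5.11 (5.10 to 5.25). The middle 50% of widths ran from 273 to 488 bp, and the full range was 219 to 6031 bp. Folds ranged from 2.32 to 21.6, and fold and width went together only loosely (Spearman rho = 0.31 over the 1296 peaks, which come from 1 library). Intergenic and intronic intervals overlapped for fold enrichment and not for width.

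The intergenic peaks lay nearer to TSSs than intergenic sequence as a whole. The median distance from summit to nearest TSS was 16763 bp (15486 to 18674), and it was 16245 bp for intronic peaks, so the 2 classes had overlapping intervals. Positions every 100 bp across the 1345 Mb of intergenic sequence outside promoters had a median distance of 27263 bp. Peaks were densest next to the promoter limit, with 1.55 per Mb at 2 to 5 kb, and thinned out with distance to 0.33 per Mb beyond 200 kb. The bins at 2 to 5 kb and 5 to 10 kb held 15.1% and 19.1% of peaks but 9.34% and 13% of the sequence. Beyond 50 kb the order turned, and the bin at 50 to 100 kb held 11.8% of peaks and 17.7% of the sequence.

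**Figure D1:**
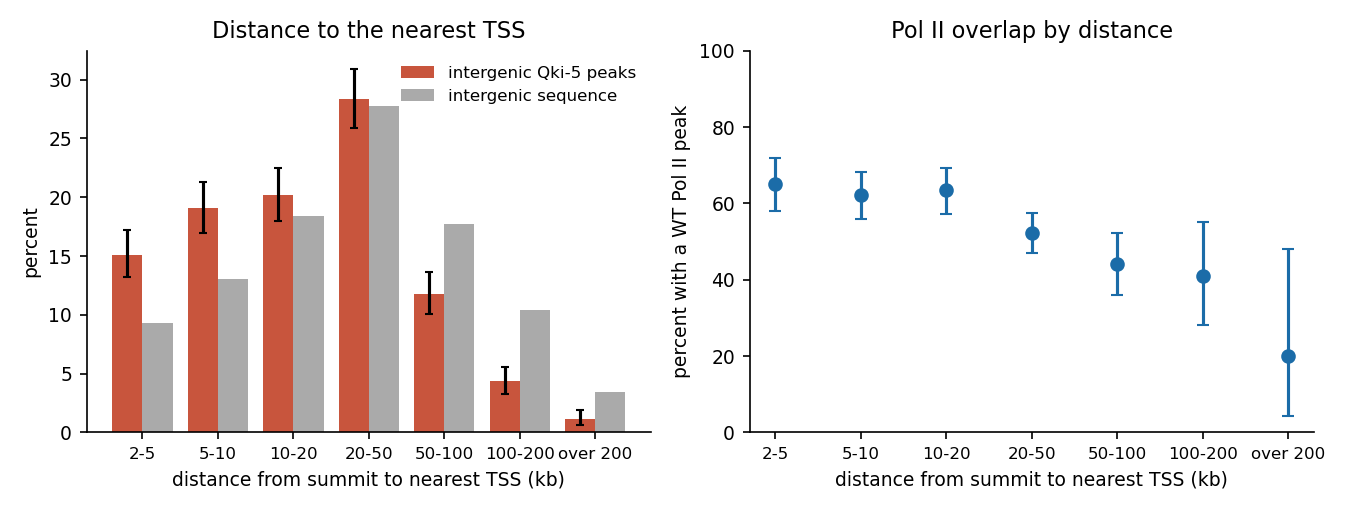
Left, the percent of intergenic Qki-5 peaks (red, with exact 95% intervals) and of intergenic sequence (grey) at each distance from the nearest TSS in kb. Right, the percent of peaks in each bin with a WT Pol II peak, which was 65.1% at 2 to 5 kb and 44.1% at 50 to 100 kb.

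A protein-coding gene owned the nearest TSS for 472 peaks (36.6%), a lincRNA for 289 (22.4%) and a processed pseudogene for 231 (17.9%). The nearest TSS of a protein-coding gene was a median 45997 bp away. Peaks lay upstream of the nearest TSS in 708 cases and downstream in 582, and the nearest gene end was a 3′ end for 757 and a 5′ end for 533. The peaks farthest from any TSS were chr1:114673974-114674367, 545572 bp away, chr5:85239578-85240043, 372943 bp away, and chr2:123813565-123813960, 276147 bp upstream of the semaphorin gene Sema6d. The latter pair had a WT Pol II peak, with Pol II folds of 6.04 and 8.39.

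Chromosome 11 had the densest intergenic Qki-5 peaks among the 21 chromosomes, with 1.76 per Mb of intergenic sequence, and the sex chromosomes were the sparsest. Chromosome X held 0.42 per Mb and chromosome Y 0.026 per Mb. A WT Pol II peak was present at 7 of the 45 peaks on chromosome X, where 27 of them formed the array described below, and at 43.9% to 67.4% of the peaks on each autosome. The remaining 6 peaks lay on contigs outside the chromosomes, which the annotation used here does not cover. In GENCODE's primary assembly annotation 5 of them lay in a gene and within 2 kb of a TSS, namely 2 at CAAA01118383.1 and 3 at AC149090.1, so these 5 would be promoter peaks there. All 5 had a Pol II peak in both genotypes, and 2 had a Qk-/- Qki-5 peak.

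Over 50% of the intergenic Qki-5 peaks coincided with Pol II in WT cells. A WT Pol II peak overlapped 734 of the 1296 (56.6%, 53.9 to 59.4), against 79.3% of all WT Qki-5 peaks. The share was 61.6% (59.1 to 64.1) for intronic and 92.0% (91.2 to 92.8) for promoter Qki-5 peaks. WT Pol II peaks covered 0.334% of intergenic sequence outside promoters. For exonic peaks it was 61.2% (53.8 to 68.2), an interval that held the whole intergenic one. The intergenic share was thus the lowest of the classes by value but was not separated from the exonic share. Its interval and that of the intronic share overlapped only at their ends. Keeping only peaks of 5-fold or more in each list gave a share of 38.0%.

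**Figure D2:**
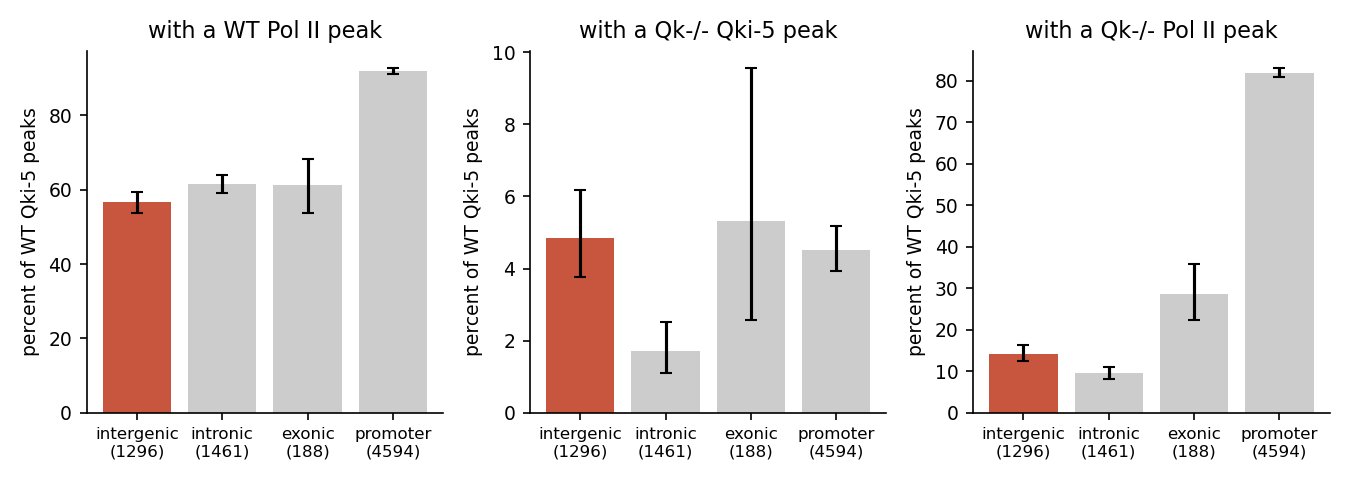
Percent of WT Qki-5 peaks in each position class (number of peaks in brackets) that overlapped a peak of the WT Pol II, Qk-/- Qki-5 or Qk-/- Pol II list by at least 1 bp. Bars start at 0, error bars are exact 95% intervals, and intergenic peaks (red) stood at 56.6%, 4.86% and 14.3%.

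The Pol II peaks at these sites mostly lay outside GENCODE promoter regions themselves. Only 53 of the 734 peaks (7.22%) overlapped a Pol II peak that reached a promoter. Thus 52.5% of all intergenic Qki-5 peaks had Pol II that reached no promoter region of the GENCODE annotation of the chromosomes. RefSeq promoters and those on contigs were not counted, and the rule had already removed Qki-5 peaks that touch a GENCODE promoter. The strongest Pol II peak at each site had a median width of 750 bp and a median fold of 5.87 (middle 50% 4.5 to 8.87). Pol II and Qki-5 summits were a median 126 bp apart, and within 100 bp at 306 sites (41.7%). Pol II and Qki-5 fold enrichments had a Spearman rho of 0.076 over the 734 sites, which share 1 input.

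Pol II overlap was commoner close to genes and at wide peaks. It was present at 65.1% (58.0 to 71.8) of peaks at 2 to 5 kb from a TSS and at 44.1% (36.0 to 52.4) at 50 to 100 kb, while the bins from 2 to 20 kb differed by less than their intervals. Within 5 kb beyond the 3′ end of a gene, 69.1% of 259 peaks had Pol II, against 49.6% of the 498 peaks farther beyond a 3′ end. By width, the share was 39.8% (34.4 to 45.4) among the 324 narrowest peaks and 75.0% (69.9 to 79.6) among the 324 widest. Qki-5 summits lay inside a Pol II peak in 37.0% and 68.5% of these groups. A wide peak has more bases with which to overlap, and the part of width in these shares was not tested. By fold enrichment the Pol II share ranged only from 50.3% to 62.0% across 4 equal groups.

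A Qk-/- Qki-5 peak overlapped 63 intergenic peaks (4.86%, 3.76 to 6.18), against 4.06% of all WT Qki-5 peaks. Intronic peaks stood at 1.71% (1.11 to 2.52) and promoter peaks at 4.53% (3.94 to 5.17). Seen from the other side, 68 of the 427 Qk-/- Qki-5 peaks (15.9%) overlapped an intergenic WT peak. Because the Qk-/- list is far shorter and depths are unknown, an absent call and a lower signal cannot be told apart from a shallower library. The 63 shared sites had a median fold of 8.65 in WT and 8.79 in Qk-/- cells.

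The peaks also called in Qk-/- cells were commonest among the strongest peaks, and by width they included both wide and narrow ones. Of the 324 most enriched peaks 45 (13.9%, 10.3 to 18.1) had a Qk-/- Qki-5 peak, against 5 to 7 in each of the other groups of 324. From the narrowest to the widest group of 324, 10, 17, 4 and 32 peaks had one. Of the 10 strongest peaks 6 had one, and of the 10 widest 8 had one. Of the 52 peaks over 1000 bp wide, 22 (42.3%, 28.7 to 56.8) had one, 17 had a WT Pol II peak, 13 had neither, and none had both. Over all WT Qki-5 peaks 246 (3.26%) were that wide. Qk-/- calls by width or fold were not counted over all WT Qki-5 peaks. These shares are thus not shown to be particular to intergenic peaks.

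**Figure D3:**
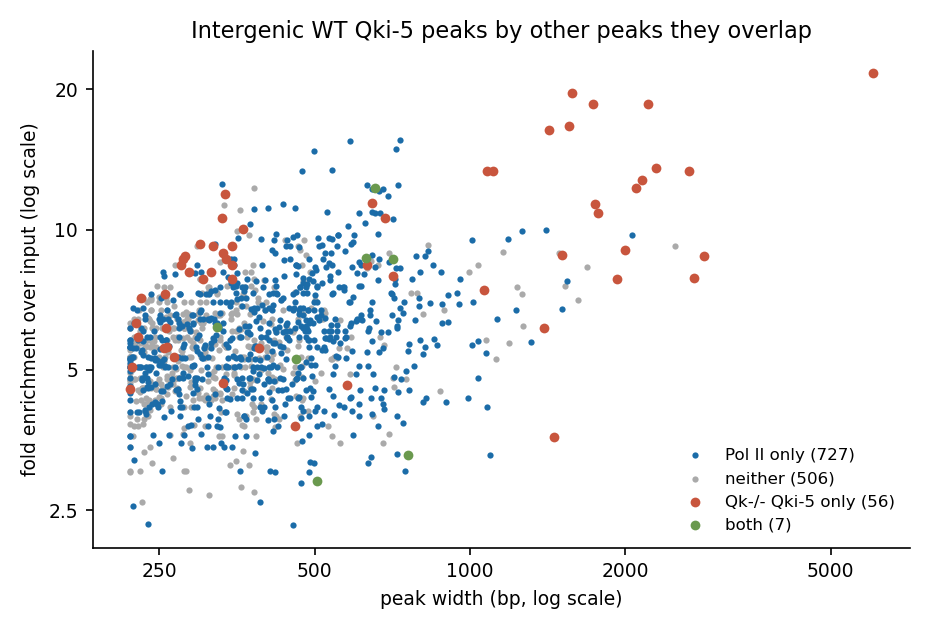
Fold enrichment over input against peak width in bp, both on log scales, for the 1296 intergenic WT Qki-5 peaks, coloured by whether they overlap a WT Pol II or a Qk-/- Qki-5 peak. The 56 peaks shared with Qk-/- cells and without Pol II (red) include a group wider than 1000 bp that reaches 21.6-fold, and peaks with Pol II (blue) reach 15.5-fold.

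WT Pol II and Qk-/- Qki-5 calls split the intergenic peaks into groups. Pol II alone was present at 727 peaks, Qk-/- Qki-5 alone at 56, both at 7 and neither at 506. Of the 7, 2 lay on a contig where the primary assembly annotation has a promoter. The same split was not counted over all WT Qki-5 peaks, so it is not shown to be particular to intergenic ones. Of the 63 shared sites, 56 lacked a WT Pol II peak. The 56 had a median fold of 8.65 (7.86 to 9.21), above the 5.81 (5.63 to 5.89) of peaks with Pol II alone and the 5.34 (5.31 to 5.61) of peaks with neither. Their sequence also differed, with a median GC content of 37.6% (36.3 to 39.3) around the summit against 53.2% (52.7 to 53.7) and 49.8% (49.3 to 50.7).

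The 22 wide peaks shared with Qk-/- cells, singled out after their values were seen, had WT folds of 3.59 to 21.6 and a median CpG observed-to-expected ratio of 0.76, against 0.24 over all intergenic peaks. The strongest, chr6:51176816-51182846, was 6031 bp wide, 21.6-fold enriched in WT and 16.9-fold in Qk-/- cells, and lay 90578 bp downstream of the microRNA gene Mir148a. A neighbour at chr6:51171178-51172754 reached 19.6-fold. Others lay 6165 bp downstream of a TSS of Hoxa13, a homeobox gene of the posterior body axis (18.6-fold in WT, 11.1-fold in Qk-/-) and 7688 bp downstream of one of the homeobox gene Evx1 (16.7 and 11.6). None of the 22 had a WT Pol II or a Qk-/- Pol II peak.

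Further wide shared peaks lay 6388 bp from a TSS of Sim2, which encodes a bHLH-PAS factor (12.8-fold in WT and 8.03-fold in Qk-/- cells), 6874 bp from Foxa1, which encodes a forkhead pioneer factor (12.3 and 7.59), and 5827 bp from Neurog1, which encodes a proneural factor (6.16 and 5.47). The wide peak whose nearest protein-coding gene was Meis2, a homeobox cofactor gene, lay 208515 bp away (13.5 and 9.62). A peak 26940 bp upstream of Rasgrf1, a Ras exchange factor gene that is imprinted in mouse, reached 18.6-fold in WT and 8.62-fold in Qk-/- cells. A peak 25222 bp upstream of the growth factor receptor gene Igf1r reached 13.3-fold and 10.2-fold. The peak 2660 bp upstream of Cdk6, a G1 kinase gene, was 10.9-fold in WT and 27-fold in Qk-/- cells, the highest Qk-/- fold among the 63 shared sites. Of the 22 wide shared peaks, 15 had a lower and 7 a higher fold in the Qk-/- list, and folds of different libraries are not on a common scale.

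The narrow peaks shared with Qk-/- cells looked different. The 29 that were under 400 bp wide had a median GC of 37.3%, a median CpG ratio of 0, and a median of 82.1% of the summit window in bases that the reference marks as repeats, against 10.2% for the wide ones. They shared short sequences, of which the commonest of 15 bases stood in 13 of them. These peaks were also singled out after their values were seen, and the sequence is given because separate peaks share it.
shared 15 bases: aagaaacacacctca

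The same 15 bases occurred 711 times in the mm10 chromosomes, and 25 copies overlapped a WT and 41 a Qk-/- Qki-5 peak. Reads from such copies can match many places. The study's methods name Bowtie2 and no filter on mapping quality, while the submitters' notes name another Bowtie version, so how such reads were placed was not settled here.

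The 5 strongest peaks absent from the Qk-/- Qki-5 list all had a WT Pol II peak. They were chr4:97192891-97193622 (15.5-fold) upstream of Gm10192, chr1:90288707-90289292 (15.5-fold) at 85024 bp from the chemokine receptor gene Ackr3, chr12:111691230-111691949 (14.9-fold) at 13570 bp from the tRNA methyltransferase gene Trmt61a, chr5:77137619-77138117 (14.7-fold) at 22804 bp from the homeodomain gene Hopx, and the Olig1 peak. Their WT Pol II folds were 7.44, 7.19, 12.9, 10.1 and 8.98 in that order, and none had a Qk-/- Pol II peak. The strongest with neither Pol II nor a Qk-/- Qki-5 peak was chr2:27599027-27599408 (12.3-fold), 77982 bp upstream of the retinoid X receptor gene Rxra. The next were chr8:112138904-112139236 (11.3-fold), chr9:61013146-61013503 (11-fold), chr9:27288484-27288837 (9.91-fold) near the immunoglobulin superfamily gene Igsf9b and chr12:35824708-35825079 (9.75-fold). All of these were under 400 bp wide.

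Few intergenic sites were called for Pol II in Qk-/- cells. A Qk-/- Pol II peak overlapped 185 intergenic peaks (14.3%, 12.4 to 16.3), against 55% of all WT Qki-5 peaks, 9.51% (8.06 to 11.1) of intronic and 82.0% (80.8 to 83.1) of promoter peaks. All 185 also had a WT Pol II peak, so the Pol II call was shared at 25.2% (22.1 to 28.5) of the 734 sites. The same share was 69.2% (68.1 to 70.4) for all WT Qki-5 peaks with Pol II and 15.1% (12.8 to 17.6) for intronic ones. It was 10.5% for all 5414 intergenic WT Pol II peaks and 33.8% for all WT Pol II peaks. None of the 562 intergenic peaks without WT Pol II had a Qk-/- Pol II peak, which allows a share of up to 0.654%. Such calls were rare over all WT Qki-5 peaks too, as 4138 of the 4144 with a Qk-/- Pol II peak also had a WT one. The Qk-/- Pol II list was shorter than the WT list, and a lower signal and a shallower library cannot be told apart here.

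Most intergenic peaks stood alone, and some formed clusters. Linking summits within 10 kb of each other placed 271 peaks (20.9%, 18.7 to 23.2) in 104 clusters, and 1025 had no such neighbour. There were 83 clusters of 2, 12 of 3, 6 of 4, 2 of 9 and 1 of 27. Pol II overlap was 56.5% inside and 56.7% outside clusters. Counting WT Qki-5 peaks of any class, 381 intergenic peaks (29.4%) had one within 10 kb.

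The 2 clusters of 9 both lay on chromosome 6, at chr6:47654851-47685805 and chr6:47739640-47772488, and formed a regular array. Neighbouring summits were a median 4292 bp and 4424 bp apart within them, and the clusters were 54674 bp apart. All 18 peaks had a WT Pol II peak, none had a Qk-/- Qki-5 peak and 8 had a Qk-/- Pol II peak. Their Qki-5 folds were 2.34 to 5.83, and Pol II folds 2.27 to 5.66 in WT and 2.11 to 3.62 in Qk-/- cells.

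The first peak of the array contained the RefSeq gene Rn4.5s, which encodes 4.5S RNA, a small rodent RNA transcribed by RNA polymerase III. The gene sequence (RefSeq, mm10) is shown because it recurs along the array, with the letters of the B box GTTCGANNC, an internal promoter element of such genes, in capitals.
4.5S RNA gene, chr6:47654921-47655094, minus strand: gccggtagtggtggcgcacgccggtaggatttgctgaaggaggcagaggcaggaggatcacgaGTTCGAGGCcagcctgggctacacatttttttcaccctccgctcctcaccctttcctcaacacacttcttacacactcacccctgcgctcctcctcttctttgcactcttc

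A search for copies holding at least 5 of 6 consecutive pieces of 25 bases found 13 in the genome, all in this array and spaced a median 4337 bp. Every copy overlapped a WT Qki-5 peak and a WT Pol II peak, 6 overlapped a Qk-/- Pol II peak, and none overlapped a Qk-/- Qki-5 peak. Of the 18 Qki-5 peaks 13 overlapped a copy. Their summits lay a median 181.5 bp from the middle of the nearest copy, over all 18 peaks, and a copy was 174 bp long. Near-identical copies share reads, so the peaks of the array are not independent, and GENCODE M21 has no gene at the summits.

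**Figure D4:**
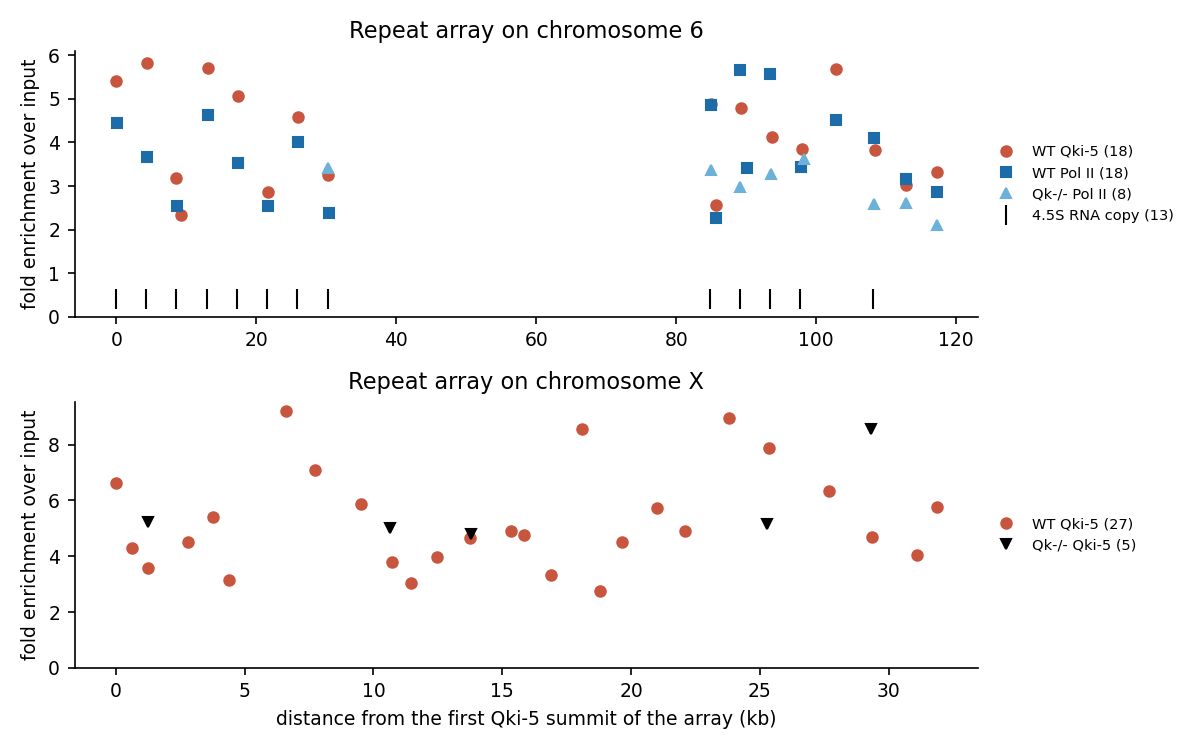
Fold enrichment over input of peaks along the arrays on chromosomes 6 (top) and X (bottom), by distance in kb from the first Qki-5 summit, with ticks for 4.5S RNA copies. WT Qki-5 (red) and WT Pol II (blue) peaks recur together on chromosome 6, while on chromosome X there are 27 WT and 5 Qk-/- Qki-5 peaks and no Pol II peak.

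The cluster of 27 lay at chrX:126745812-126777964, 37992 to 69867 bp downstream of the TSS of 4932411N23Rik. It had no Pol II peak in either genotype, and 5 of its peaks had a Qk-/- Qki-5 peak. Folds ran from 2.74 to 9.21, widths from 219 to 2721 bp, and the median GC was 30.3%. The peaks shared the following 20 bases, found in 21 of the 27 and in no other intergenic peak.
shared 20 bases: aaaaatgtggttaaaatgga

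Of 52 copies of these bases in the genome, 41 lay within the cluster and 36 overlapped its peaks. The 2 arrays thus differed in Pol II, with 18 of 18 and 0 of 27 peaks overlapping it. Without these 45 peaks, 18.1% of intergenic peaks were in clusters.

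The other large clusters lay at single loci. The cluster of 4 at chr6:51171178-51183575 held the strongest peak of all and a second shared with Qk-/- cells. The cluster of 4 at chr2:115853867-115861032, 203733 to 210619 bp downstream of Meis2, reached 13.5-fold, and neither had Pol II. Clusters of 4 also lay near Nkx2-5, Tfap2a, Id3 and Mnx1. All 4 peaks near Id3, which encodes an inhibitor of bHLH factors, had Pol II in both genotypes, and those near the homeobox genes Nkx2-5 and Mnx1 and near Tfap2a had it in neither.

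Some intergenic peaks lay on RefSeq features that the GENCODE rule does not use. Of the 1296, 234 (18.1%) had the summit in a RefSeq gene and 134 (10.3%) overlapped the region within 2 kb of a RefSeq TSS. Enhancers listed by RefSeq, mostly fragments tested in transgenic embryos, overlapped 38 peaks (2.93%), against 0.942% of all WT Qki-5 peaks, and 34 of the 38 had WT Pol II. The strongest, at chr15:62903051-62903703 (12.3-fold), was the only one also called in Qk-/- Qki-5. Another lay at chr1:132333700-132334080 (11.1-fold) near the kinase gene Nuak2.

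Nuclear tRNA genes in RefSeq overlapped 11 peaks (0.849%), against 0.239% of all WT Qki-5 peaks. These peaks had folds of 4.32 to 7.27, 10 had a WT Pol II peak, 6 a Qk-/- Pol II peak and none a Qk-/- Qki-5 peak. The strongest, at chr8:94703908-94704230, covered a leucine tRNA gene and was the only one without Pol II. A peak at chr11:48856527-48857076 covered a valine and a leucine tRNA gene. Like 4.5S RNA, tRNAs are transcribed by RNA polymerase III, and the antibody used recognises the repeats at the tail of Pol II.

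Genes nearest to the peaks were spread widely. The 1290 peaks on chromosomes had 946 different nearest protein-coding genes, of which 735 had 1 peak and 65 had 3 or more. Of these 946 genes, 33.6% also had a WT Qki-5 peak at a promoter, against 19.4% of all protein-coding genes, and 69.9% had a Pol II peak there, against 54.1%. Nearness is no evidence that a peak acts on a gene. An intergenic Qki-5 peak lay within 100 kb of a TSS for 2149 of 21924 protein-coding genes (9.8%).

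Lineage genes were near that background or above it with wide intervals. Peaks lay within 100 kb of 3 of 16 oligodendrocyte genes (18.8%, 4.05 to 45.6), of 2 of 8 precursor genes and of 3 of 11 neural stem cell genes. Beside the Olig1 peak, a peak at 33356 bp upstream of Olig2, which encodes its partner factor, reached 8.13-fold and had Pol II. The third oligodendrocyte gene was Sox10, with a peak 66805 bp away. A peak 9577 bp from a TSS of Vim, the intermediate filament gene, had 6.43-fold Qki-5 and 92.9-fold Pol II enrichment, and its whole summit window was marked as repeat. Of the remaining marker lists, 2 of 10 astrocyte, 1 of 8 neuronal and 0 of 6 microglial genes had a peak within 100 kb.

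Regulators of the neural progenitor state had several peaks. Of 13 Notch, Id and Hes genes 4 had an intergenic peak within 100 kb (30.8%, 9.09 to 61.4). A peak 5042 bp downstream of Hes1, a Notch target repressor gene, stood at 7.92-fold with Pol II in both genotypes. Of 20 neural homeobox and Pax genes 7 had a peak within 100 kb (35.0%, 15.4 to 59.2), among them Pou3f2, with a peak at 6687 bp upstream (9.48-fold) that had 21.4-fold Pol II. Of 10 immediate early genes 3 did, and the Fos peak at 12192 bp stood at 6.28-fold with 18.5-fold Pol II. Among 10 partner transcription factor genes 2 did, with Cebpb peaks at 6.60-fold and 5.56-fold.

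Of 8 STAR and Igf2bp RNA-binding protein genes 3 had a peak within 100 kb. Qk itself, which encodes Qki-5, was nearest to 3 intergenic peaks, the closest 16061 bp from a TSS and the strongest 75451 bp upstream (7.69-fold, with 5.87-fold Pol II). Peaks 12701 bp upstream of Igf2bp3 (11.4-fold) and 4665 bp upstream of Igf2bp1 (8.37-fold) had no Pol II. Both genes encode mRNA-binding proteins of the fetal period. The Igf2bp3 peak was among the wide peaks shared with Qk-/- cells, at 15.5-fold there, and the Igf2bp1 peak was not called in Qk-/- cells. By contrast, 1 of 21 cholesterol biosynthesis genes and 0 of 15 sterol regulation and uptake genes had an intergenic peak within 100 kb, although 21 of 21 and 12 of 15 had Pol II at the promoter. At such list sizes every interval but that of neural homeobox and Pax genes included the background of 9.8%. These intervals treat genes as independent, although neighbours such as Dlx1 and Dlx2 can share a peak. That list is also 1 of several, chosen with earlier results of these data known.

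Srebp2, the activator of cholesterol synthesis genes, met intergenic Qki-5 peaks at 4 places, 2 of them on contigs where the primary assembly annotation has a promoter. The Srebp2 lists were short, at 77 and 28 peaks, so few overlaps could be found. The overlap with the highest Qki-5 fold was chr9:77910316-77910904, 6522 bp upstream of the fatty acid elongase gene Elovl5, where Qki-5 stood at 4.38-fold and Pol II at 23.2-fold in WT cells, with Pol II also called in Qk-/- cells. A peak at chr3:5860372-5860762 had 2.61-fold Qki-5 and 1.75-fold Pol II enrichment. A WT Srebp2 peak overlapped 3 of the 1296 (0.231%) and a Qk-/- Srebp2 peak 1 (0.0772%). The shares of all WT Qki-5 peaks were 0.424% and 0.172%.

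Intergenic Qki-5 summits were richer in GC than intergenic sequence and much poorer than promoters. The median GC of the 201-bp summit window was 51.7% (51.2 to 52.2), against 52.2% (51.7 to 52.7) at intronic and 67.7% (67.2 to 68.2) at promoter peaks and 40.3% in 134469 windows placed every 10 kb in intergenic sequence. The median CpG observed-to-expected ratio was 0.24, against 0.20, 0.88 and 0.13. Repeat-marked bases made up a mean 12.1% of the windows at peaks and 43.7% of the windows placed every 10 kb. Short tandem repeats touched 3.64% of the peak windows and 6.41% of the others.

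The motif shares followed no single pattern. All motifs were searched on both strands. The Qki response element was searched as DNA letters ACTAAC or the variant ACTAAT, the short site of nuclear factor I (NF1) as TTGGCA, and the Sox site as ACAAAG or the variant ACAATG. C/EBP was searched as TTGCNNAA, the Rfx site as GTTGCCA, the Nrf1 core as GCGCANGCG, and the AP-1 site as TGANTCA. The CCAAT box was searched by its own letters, the GC box as GGGCGG and the E box as CAGCTG. The Srebp site was searched as TCACNCCAC and the B box as given above, and the NF1 palindrome and CTCF site are given by name alone. The E box stood in 27% (24.6 to 29.5) of intergenic windows and in 6.30% of the windows placed every 10 kb, and the short NF1 site in 28.4% (26.0 to 31.0) against 9.69%. Nuclear factor I and E box-binding bHLH proteins are known regulators in neural stem cells and glia. At intronic Qki-5 peaks the shares were 26.1% and 29.4%, and over all WT Qki-5 peaks 17.8% and 15.8%.

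The GC box and the Rfx site were lower in share but stood further above the windows placed every 10 kb in relative terms, in 10.5% against 1.38% and in 7.67% against 1.70%. Over all WT Qki-5 peaks they stood in 36.6% and 3.92%, and at intronic peaks in 7.80% and 5.13%. The GC box was thus scarcer at intergenic peaks than over all Qki-5 peaks. AP-1 stood in 11.6% against 5.99%, Sox in 35.8% against 29.3%, and C/EBP in 14.0% against 10.1%. The Qki response element, the RNA letters that Quaking binds, stood in 7.98% (6.56 to 9.60) of intergenic windows against 15.5% of those placed every 10 kb, and the CCAAT box in 25% against 32.1%. Among Qki-5 peaks neither was scarce at intergenic ones, with shares of 9.03% and 22.3% at intronic peaks and 5.38% and 19.4% over all. The Nrf1 core stood in 0.775% against 0.0469%, the Srebp site in 0.775% against 0.432%, CTCF in 0.310% against 0.0885% and the B box in 1.16% against 0.741%, and the NF1 palindrome was in 1 window. Over all WT Qki-5 peaks these motifs, without the palindrome, stood in 5.50%, 0.783%, 0.358% and 0.757% in that order. Base composition differs between these sets and was not matched, and the windows of the repeat arrays share sequence.

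**Figure D5:**
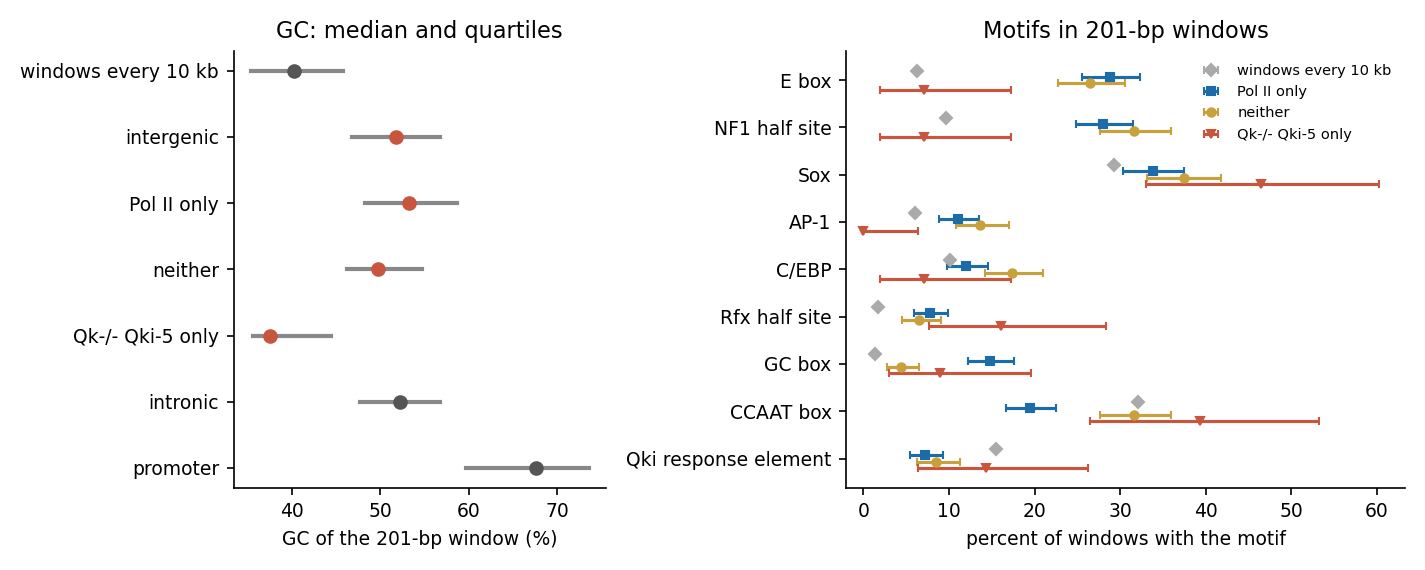
Left, the median GC (points) and the middle 50% (bars) of 201-bp windows for intergenic Qki-5 peaks and their groups, intronic and promoter peaks, and windows every 10 kb. Right, the percent of windows with each motif and exact 95% intervals, where peaks with Qk-/- Qki-5 only (red) sit at 7.14% for the E box and peaks with Pol II only (blue) at 28.9%.

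For 3 motifs the interval of peaks with a Qk-/- Qki-5 peak only lay below those of both other groups. The E box stood in 28.9% of windows with Pol II only, 26.5% with neither and 7.14% (1.98 to 17.3) of those with a Qk-/- Qki-5 peak only. The short NF1 site stood in 28.0%, 31.7% and 7.14%, and AP-1 in 11%, 13.7% and 0 of 56, which allows a share of up to 6.38%. For the others the interval overlapped that of at least 1 group, with the Qki response element in 14.3% (6.38 to 26.2), Sox in 46.4%, C/EBP in 7.14%, Rfx in 16.1%, the GC box in 8.93% and the CCAAT box in 39.3% of these 56 windows. Within 50 bp of the summit Rfx stood in 3.57% and the CCAAT box in 8.93% of them. The 56 windows had a median of 50.2% repeat-marked bases. Repeat copies are not independent, so these intervals are too narrow. In windows placed every 10 kb the E box and short NF1 site stood in 6.30% and 9.69%. The GC box differed between peaks with Pol II only and peaks with neither, at 14.8% (12.3 to 17.6) and 4.36% (2.75 to 6.52). The CCAAT box went the other way, at 19.5% (16.7 to 22.6) and 31.7% (27.6 to 35.9).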

How the data were processed

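ChIP-seq peak lists for Qki-5, Pol II and Srebp2 in WT and Qk-/- cells were used, with 1 library per antibody and genotype, and groups followed the deposited labels. Per the methods and labels, the authors trimmed reads, aligned them to mm10 with Bowtie (the methods name Bowtie2, the submitters' notes Bowtie 1.2.2), removed duplicates and used MACS2 2.1.2 for peaks over input, with 0.05 as the q-value limit. The deposited lists give fold enrichment over input (a ratio), −log10 p-values and q-values, and a display score. Each fold is relative to its own input, so folds of different libraries are not on a common scale. Promoters were TSSs ± 2 kb.

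Computed here with Python 3.11.15, pandas 2.3.3, numpy 2.4.6 and scipy 1.17.1 were positions against GENCODE M21, overlaps of at least 1 bp, clusters of summits within 10 kb, and sequence features within 100 bp of summits in GRCm38.p6 (mm10), RefSeq. Genes and TSSs come from GENCODE M21. RefSeq features and the repeat marking of the reference were read from the same RefSeq release. Shares have exact binomial (Clopper-Pearson) and medians exact order-statistic 95% intervals. With single libraries no test between conditions was possible. Classification, overlap and cluster code was tested on simulated data.

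Named peaks are the 10 strongest, the 5 strongest without a Qk-/- Qki-5 peak and without that and Pol II, the 5 widest, the 3 farthest from a TSS, the 5 largest clusters, those with a Srebp2 peak and up to 3 per gene list. Further wide shared peaks, the remaining clusters of 4, peaks on RefSeq features and the shared sequences were named after their values were seen. Members and lists were chosen with earlier results of these data known. Alternatives changed the peak threshold, promoter window, gene set, overlap rule, cluster distance and sequence window. Deposited lists without a measured depth give no limit of detection. Some peaks under the naming rule are not reported here.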

Additional observations from a re-analysis of the deposited data

How the results depend on the processing

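Of 98 values under alternatives, 66 stayed within the interval of the main value (for the number of peaks, within 1.5 times), among them those without the 6 peaks on contigs, an alternative chosen after seeing the data. With a fold of at least 5 in every list, 38.0% of intergenic peaks, no longer most of them, had a WT Pol II and 9.95% a Qk-/- Pol II peak, the median width was 376 bp, the median fold 6.37, and 15.2% lay in clusters. With promoter windows of 1 and 5 kb the median distance to a TSS was 15456 and 23126 bp, and with 5 kb 12.1% had a Qk-/- Pol II peak. With protein-coding genes only, these were 44527 bp and 18.9%, and 25.9% lay in clusters. A summit inside the other peak gave 52.7% for WT and 11% for Qk-/- Pol II, and a peak within 1 kb gave 16.4% for Qk-/- Pol II. Clusters held 17.2% at 5 kb, 29.9% at 25 kb, 29.4% with any WT Qki-5 peak as neighbour and 18.1% without the repeat arrays, an alternative chosen after seeing the data like the removal of RefSeq genes. Median GC was 50.5% within 250 bp, and 62.9% of windows within 50 bp held any listed motif against 85.5% within 100 bp; 12 of 14 single motifs moved with that window, which is shorter by construction. No paired analysis was possible because each antibody and genotype has 1 library. Depth is unknown, so absent calls are not absent binding.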
